A study of Mus musculus with 16 samples.

Results

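The interferon-response genes examined here are 39 interferon-stimulated genes, that is, genes whose transcription is raised by interferons. They were taken by name from the 55573 genes of a raw count table from tumour-infiltrating mouse CD8 T cells, and 38 of them had enough counts to be tested. The cells were OT1 cells, C57BL/6 CD8 T cells whose transgenic receptor recognises ovalbumin. They had been transferred into tumour-bearing mice as a mixture of Foxp3UP and Mock cells and were sorted from the tumours after 5 days of treatment as live cells that carried CD8 and the transfer markers CD45.1, CD90.1 or both. The 4 groups, each of 4 libraries, are called Foxp3UP, MockUP, Foxp3DN and MockDN. The labels give neither the meaning of UP and DN nor whether or how Foxp3, the factor that defines regulatory T cells, was imposed on the Foxp3 groups. They name neither the tumour, nor what a Mock cell had received, nor the age or sex of the mice, and they do not say whether libraries came from separate mice, so p-values measure only the spread between these samples, which may be technical. Each Foxp3 group was set against the Mock group of the same suffix (called the UP arm and the DN arm here). All 4 groups are given side by side because MockUP was low.

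Interferons act through surface receptors that activate Janus kinases and STAT proteins. Signals of type I interferons (alpha and beta) reach target promoters mainly at the interferon-stimulated response element (ISRE), which a complex with Stat2 and Irf9 binds, and those of interferon gamma at the gamma-activated site (GAS). The induced genes include sensors of foreign nucleic acid, further transcription factors and effectors that block viral replication, and many also respond in T cells inside tumours.

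Short stretches around the ISRE or GAS letters are shown for 8 members, so that the genes described below can be seen with the promoter elements they are known for. They come from RefSeq promoter windows of build GRCm38.p6, which run from 250 bases before to 50 bases after a gene's start, and are written 5′ to 3′ on the gene's own strand. Capitals mark the bases that match the letters GAAANNGAAA or TTTCNNTTTC (ISRE) in the first 7 genes, and TTCNNNGAA (GAS) in Irf1. Isg15 (chr4:156200861-156200910, minus strand), which encodes a ubiquitin-like protein, Oas1a (chr5:120907526-120907559, minus strand), Gbp2 (chr3:142620590-142620627, plus strand) and Gbp3 (chr3:142559985-142560028, plus strand) are members that were higher in Foxp3UP than in MockUP.
Isg15: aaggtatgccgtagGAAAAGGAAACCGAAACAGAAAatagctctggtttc
Oas1a: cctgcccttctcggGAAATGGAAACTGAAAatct
Gbp2: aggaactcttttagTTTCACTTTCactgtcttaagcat
Gbp3: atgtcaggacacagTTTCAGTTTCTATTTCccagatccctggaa
Ifit1 (chr19:34640771-34640827, plus strand), Ifit3 (chr19:34583359-34583430, plus strand) and Rsad2 (chr12:26456549-26456586, minus strand) are members that did not pass the main test in that comparison and were lower in Foxp3UP than in Foxp3DN.
Ifit1: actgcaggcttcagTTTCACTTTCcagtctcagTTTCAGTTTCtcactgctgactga
Ifit3: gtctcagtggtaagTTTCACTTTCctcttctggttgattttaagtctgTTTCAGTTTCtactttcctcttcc
Rsad2: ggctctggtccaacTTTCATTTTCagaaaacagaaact
Irf1 (chr11:53769910-53769946, plus strand) was not called in any of the 5 comparisons made here and is shown for its GAS.
Irf1: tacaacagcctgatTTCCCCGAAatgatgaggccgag
The matched letters lay between 156 bases (Ifit3) and 5 bases (Oas1a) before the start that RefSeq gives.

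Library totals ran from 9389477 to 13226590 counts, and the members held between 0.545% and 0.922% of them. Foxp3 itself had 15.2 to 29.5 CPM (read counts scaled to library size with edgeR's TMM factors) in Foxp3UP, against 11.5 to 13.7 CPM in MockUP, a log2 fold change of 0.92 ± 0.17 (standard error, SE; adjusted p = 0.00233 in edgeR's quasi-likelihood test). Foxp3DN had 10.1 to 10.4 CPM of Foxp3, against 11.0 to 14.6 CPM in MockDN, and the difference was not called (-0.33 ± 0.17). CD8 T cell markers summed to 6375 to 7409 CPM in Foxp3UP, 4998 to 6703 CPM in MockUP, 6220 to 6771 CPM in Foxp3DN and 6086 to 6419 CPM in MockDN. The library MockUP 2 stood apart, with 4.86% of its counts in its top 10 genes (5.52% to 8.09% in the others) and a Spearman correlation of 0.398 between level and exonic length (0.279 to 0.323 in the others, across genes within a library). By the sample numbers in the titles, all replicates 1 and 2 precede all replicates 3 and 4, and counts and medians of the members are also given within each of these sets.

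In the UP arm, 18 of the 38 tested members were higher in Foxp3UP than in MockUP, none was lower and 20 did not pass the test (adjusted p under 0.05, over 13711 genes). Of all genes tested, 12.1% were called, 6.08% higher and 5.99% lower. The median log2 fold change of the members was 0.45, against 0.00 over all genes, and 37 of 38 were positive. The largest called changes were those of Ifi27l2a (1.36), Oas1a (1.15) and Isg20 (1.06). Leaving out 1 library gave 1.12 to 1.56 for Ifi27l2a, 0.93 to 1.28 for Oas1a and 0.87 to 1.29 for Isg20, all still called. The guanylate-binding proteins passed the test for 5 of their 6 members. In the DN arm no member passed the test in either direction, and all 38 had a positive log2 fold change, with a median of 0.13 against 0.00 over all genes. With the replicate number as a block, 30 of the 38 were higher in Foxp3UP than in MockUP and 13.3% of all genes. The block takes same-numbered libraries as pairs, which the check in the methods cannot tell from the replicate sets. The 12 members gained by this blocked test are marked below with its values. MockUP had the lowest mean log2 CPM of the 4 groups for 37 of the 38 members, and for 24.3% of all genes.

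**Figure D1:**
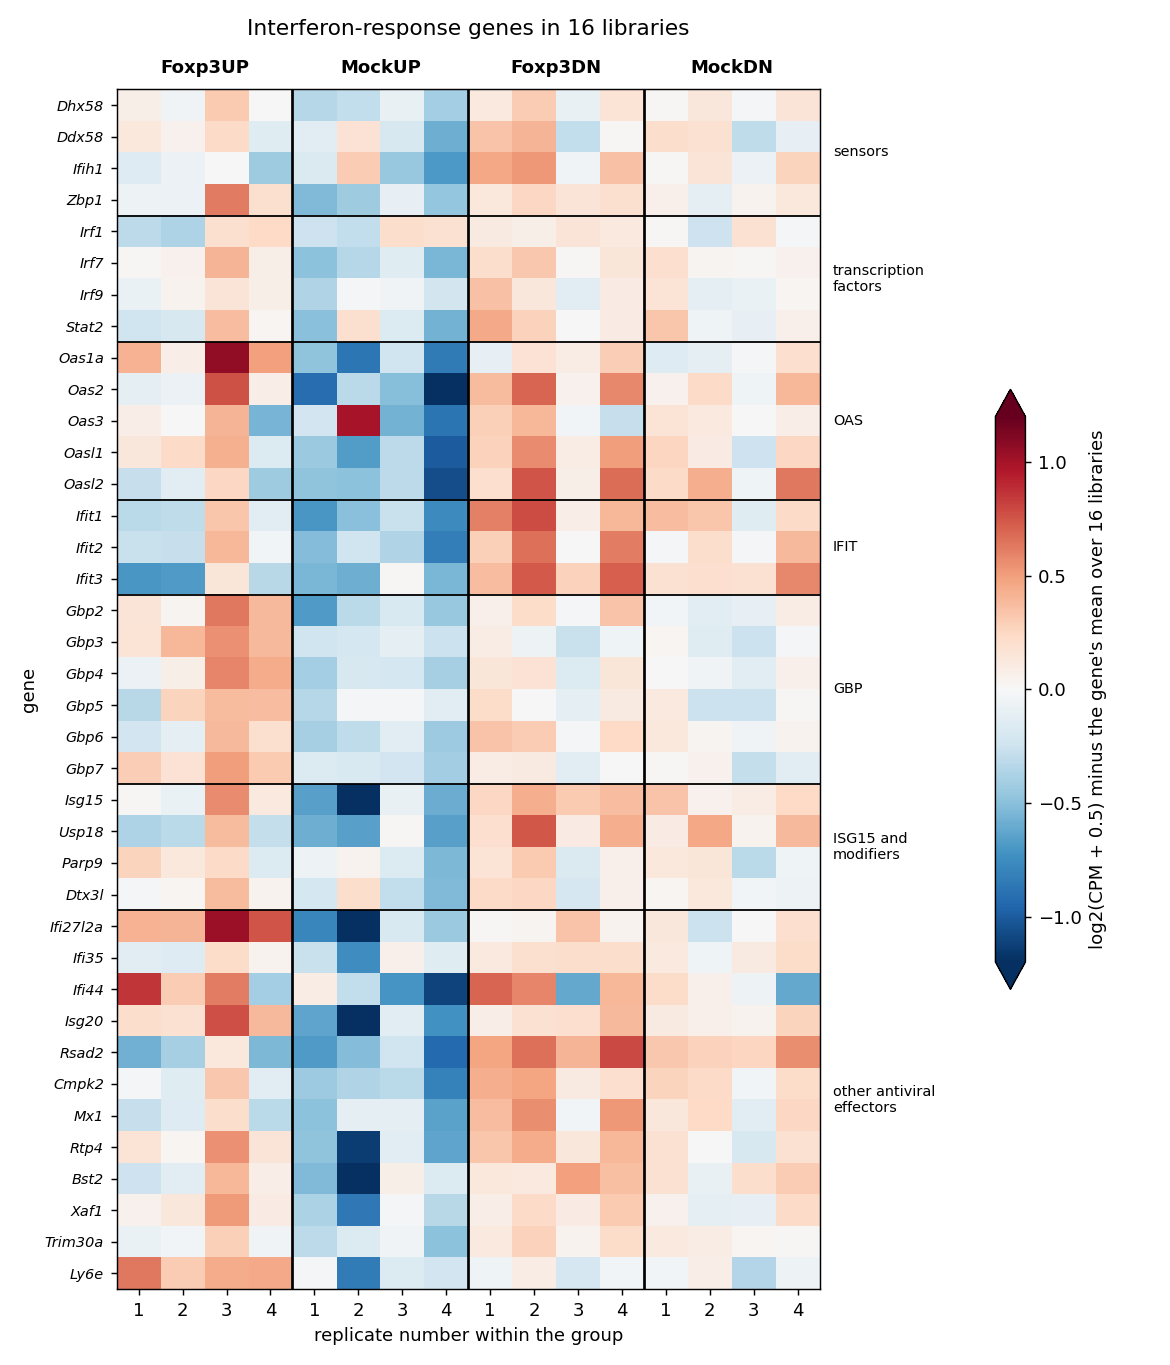
Heat map of the 38 tested interferon-response genes (rows, by role) in the 16 libraries (columns, by group and replicate number), as log2(CPM + 0.5) minus the gene's mean over all libraries, from blue (low) to red (high), with colours ending at 1.2 in either direction. Most rows are blue in all 4 MockUP libraries, and the column of Foxp3UP 3 is the reddest of its group.

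The members' share of all counts was 0.699% to 0.922% in Foxp3UP, against 0.545% to 0.656% in MockUP, and 0.717% to 0.896% in Foxp3DN, against 0.687% to 0.781% in MockDN. The 4 MockUP libraries lay below each of the other 12 libraries in this share. Foxp3UP 3 had the highest share and also the highest mean deviation of the members from the mean of all libraries, 0.43 on the log2 scale, while the other Foxp3UP libraries stood between -0.02 and 0.03. With Foxp3UP 3 left out, 13 members were called higher and their median was 0.29. Of all genes 3.81% were then called higher, against 6.08% with all libraries. Each Foxp3UP library was also set against the MockUP library of its number. It was above that MockUP library for 36, 29, 37 and 38 of 38 members in pairs 1 to 4, against 49.4% to 52.5% of all genes. A count of 29 of 38 members was higher in all 4 UP pairs (21.4% of all genes), and 21 of 38 in all 4 DN pairs (8.18%).

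Per exon length, the members spanned a wide range of levels. Mean RPKM over the 16 libraries (TMM-scaled CPM per kilobase of exonic length) was highest for Ifi27l2a at 556, followed by Ly6e at 254, Bst2 at 245.5, Ifit3 at 234 and Irf1 at 208. It was lowest for Oas1g at 0.244 and Ifi44 at 0.641. Oas1g, an oligoadenylate synthetase, had 0.2 to 1.1 CPM across libraries and was left out by the filter on low counts, so it was not tested. Levels and folds below are in TMM-scaled CPM, and 4 values in a row are replicates 1 to 4. A rise or fall is the sign of a difference between the groups compared, and does not say which group changed.

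The sensors of nucleic acid had 2 of 4 members higher in Foxp3UP than in MockUP, with a median log2 fold change of 0.30. For this and each family below, the share of all genes called higher in that comparison was 6.08%. Dhx58 (chr11:100694884-100704271, minus strand) encodes Lgp2, a helicase that modulates the RNA sensors Ddx58 and Ifih1. It had 87.6, 81, 104 and 83.9 CPM in Foxp3UP, against 65.7, 67.9, 78.5 and 62.9 CPM in MockUP, and 90.8, 103, 78.8 and 93.9 CPM in Foxp3DN, against 84.5, 92.1, 82.8 and 93.2 CPM in MockDN. Its lowest Foxp3UP library lay just above its highest MockUP library, and the DN groups overlapped. The log2 fold change was 0.37 ± 0.10 (adjusted p = 0.0265), and the call ended without Foxp3UP 1 (adjusted p = 0.0577), Foxp3UP 3 (0.103), MockUP 1 (0.0519) or MockUP 4 (0.0787). Zbp1 (chr2:173206612-173218923, minus strand), a sensor of Z-form nucleic acid that can trigger cell death, had 289, 286, 464 and 345 CPM in Foxp3UP, against 208, 225, 281 and 219 CPM in MockUP. Its DN levels were 329.8, 358, 335 and 344 CPM in Foxp3DN, against 314, 277, 310.2 and 329.9 CPM in MockDN. Foxp3UP 3 was its highest library, the UP groups did not overlap, and the DN groups did. Zbp1 rose by 0.57 ± 0.14 (adjusted p = 0.0111). Ddx58 (RIG-I), a sensor of viral RNA ends, had 121 to 157 CPM in Foxp3UP and 88.9 to 151 CPM in MockUP, and 109 to 178 CPM in Foxp3DN and 109 to 155 CPM in MockDN. Ifih1 (Mda5), a sensor of long double-stranded RNA, had 26.9 to 36.3 CPM in Foxp3UP and 22.3 to 44.8 CPM in MockUP, and 35 to 52 CPM in Foxp3DN and 34.5 to 43.6 CPM in MockDN. Both had overlapping groups in the UP arm, with log2 differences of 0.23 ± 0.17 (adjusted p = 0.412) for Ddx58 and 0.05 ± 0.18 (adjusted p = 0.89) for Ifih1.

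Among the transcription factors, Irf7 was the 1 of 4 called. Irf7 (chr7:141262706-141266481, minus strand) drives the amplification of type I interferon genes. It had 304, 311, 398 and 315 CPM in Foxp3UP, against 213, 237, 271 and 205 CPM in MockUP, and 348, 377, 303 and 333 CPM in Foxp3DN, against 345, 307, 304 and 312 CPM in MockDN. All Foxp3UP libraries lay above all MockUP libraries, Foxp3UP 3 stood apart as the highest, and MockUP was also below every DN library. Irf7 rose by 0.52 ± 0.11 (adjusted p = 0.00573). Irf9 (chr14:55603571-55610030, plus strand), the DNA-binding part of the type I complex, had 147, 159, 172 and 162 CPM in Foxp3UP, against 120.0, 152, 149.8 and 132 CPM in MockUP. Its DN values were 198, 169.5, 142 and 165 CPM in Foxp3DN, against 173, 144, 146 and 157 CPM in MockDN. Groups overlapped in both arms, and the UP difference was 0.21 ± 0.11 (adjusted p = 0.228), called with the block (0.21, adjusted p = 0.0325). Stat2 (chr10:128270559-128292849, plus strand), a partner of Irf9, had 80.4, 82.6, 123 and 96.5 CPM in Foxp3UP, against 66.6, 108, 84.4 and 64 CPM in MockUP, and 129.7, 115, 94.7 and 102 CPM in Foxp3DN, against 119.7, 91.2, 88.7 and 99.2 CPM in MockDN. MockUP 2 lay above 3 of the 4 Foxp3UP libraries, and the difference of 0.24 ± 0.17 (adjusted p = 0.392) was not called. Irf1 (chr11:53770014-53778374, plus strand), a factor that interferon gamma induces through its GAS, had 660.1, 631, 937 and 965 CPM in Foxp3UP, against 689.6, 669, 949 and 930.4 CPM in MockUP. Its levels in the DN arm were 884, 858, 909 and 889 CPM in Foxp3DN, against 827, 690.3, 929 and 812 CPM in MockDN. In both UP groups replicates 3 and 4 stood above replicates 1 and 2, with groups that overlapped fully. The UP difference of Irf1 was -0.02 ± 0.15 (adjusted p = 0.952), and Irf1 was the only tested member whose lowest group was not MockUP, with a group mean log2 level lowest in Foxp3UP.

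The oligoadenylate synthetase (OAS) family makes a second messenger that activates an RNA-cutting enzyme. Of its 5 tested members, 3 were higher in Foxp3UP than in MockUP, with a median log2 fold change of 0.78. Oas1a (chr5:120896256-120907521, minus strand) had 51.9, 41.2, 81.7 and 54.8 CPM in Foxp3UP, against 27.7, 21.1, 32.9 and 21.4 CPM in MockUP, and 36.3, 43.9, 41.4 and 47.7 CPM in Foxp3DN, against 34.8, 35.8, 38.4 and 44.9 CPM in MockDN. Each Foxp3UP library lay above each MockUP library, by group means of 57.4 ± 17.2 CPM in Foxp3UP and 25.8 ± 5.65 CPM in MockUP (SD, n = 4 each). Oas1a rose by 1.15 ± 0.19 (adjusted p = 0.000909), or 2.22-fold. Reads of Oas1a are uncertain, since 57.6% of the 50-base words in its transcripts also occur in Oas1g. Oas2 (chr5:120730333-120749853, minus strand) had 15.3, 15.8, 28.6 and 17.6 CPM in Foxp3UP, against 8.57, 13.2, 11.5 and 6.81 CPM in MockUP, and 21.8, 27.3, 17.2 and 25 CPM in Foxp3DN, against 17.2, 19.6, 16 and 22.1 CPM in MockDN. The UP groups did not overlap, with Foxp3UP 3 the highest of its group and MockUP 4 the lowest library of all. Its rise was 0.94 ± 0.23 (adjusted p = 0.0118). Oasl1 (chr5:114923240-114937915, plus strand), a family member without synthetase activity that in mice restrains Irf7 translation, had 20.4, 21.8, 25 and 16.4 CPM in Foxp3UP, against 13.4, 11.4, 14.7 and 8.98 CPM in MockUP, and 22.5, 27.6, 19.7 and 26.4 CPM in Foxp3DN, against 22.2, 19.8, 15.4 and 22 CPM in MockDN. No Foxp3UP library overlapped MockUP, and MockUP also lay below all DN libraries. Oasl1 rose by 0.78 ± 0.17 (adjusted p = 0.00771). Oasl2, an OAS-like protein, had 21.3 to 34.3 CPM in Foxp3UP and 13.5 to 23.1 CPM in MockUP, and 30.2 to 48.9 CPM in Foxp3DN and 27.7 to 44.8 CPM in MockDN, and its UP difference of 0.45 ± 0.20 (adjusted p = 0.17) was called only with the block (0.45, adjusted p = 0.00577). Oas3, the largest synthetase of the family, had 98, 93, 123 and 62.8 CPM in Foxp3UP, against 78.7, 185, 62.4 and 50.3 CPM in MockUP. The library MockUP 2 was the highest of all 16 for Oas3, and the UP difference was 0.00 ± 0.32 (adjusted p = 0.998).

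No member of the IFIT family, proteins that bind viral RNA and block its translation, passed the main test in the UP arm, and 2 of the 3 passed the blocked one. Ifit1 (chr19:34640871-34650009, plus strand), which recognises incompletely capped RNA, had 180.0, 182, 285 and 205 CPM in Foxp3UP, against 139, 159, 187 and 133 CPM in MockUP. Its DN values were 343, 387, 238 and 298 CPM in Foxp3DN, against 291, 283, 204 and 264 CPM in MockDN. Foxp3UP 1 and 2 lay between the MockUP libraries, and every MockUP library was below every DN library. The UP difference of Ifit1 was 0.46 ± 0.17 (adjusted p = 0.0896), and with the block Ifit1 was called (0.45, adjusted p = 0.00122). Ifit3 (chr19:34583531-34588731, plus strand), its partner, had 238, 242, 428 and 308 CPM in Foxp3UP, against 265, 258, 392 and 265 CPM in MockUP, and 499, 644, 469.8 and 635 CPM in Foxp3DN, against 439, 445, 438 and 578 CPM in MockDN. UP groups overlapped, with Foxp3UP 3 and MockUP 3 the highest of each, and all UP libraries were below all DN libraries. Ifit3 differed by 0.04 ± 0.19 (adjusted p = 0.914) in the UP arm. Its transcripts share 51.2% of their 50-base words with Ifit3b, so its counts are uncertain. Ifit2 had 85.8 to 137 CPM in Foxp3UP and 58.3 to 87.7 CPM in MockUP, and 103 to 165 CPM in Foxp3DN and 102 to 136 CPM in MockDN, with a UP difference of 0.46 ± 0.17 (adjusted p = 0.1) that was called with the block (0.44, adjusted p = 0.0224).

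The guanylate-binding proteins (GBP), large GTPases that attack intracellular pathogens and are strongly induced by interferon gamma, had 5 of 6 members higher in Foxp3UP than in MockUP, with a median log2 fold change of 0.58. Gbp2 (chr3:142620602-142638008, plus strand) had 124, 114, 172 and 145 CPM in Foxp3UP, against 69, 88.2, 97.5 and 80.7 CPM in MockUP, and 115, 129, 109.9 and 140.3 CPM in Foxp3DN, against 108, 101, 104 and 118 CPM in MockDN. Foxp3UP did not overlap MockUP, and the DN groups overlapped. Gbp2 rose by 0.72 ± 0.13 (adjusted p = 0.00183). Gbp3 (chr3:142560026-142573209, plus strand) had 161, 189.7, 211 and 188 CPM in Foxp3UP, against 122, 124, 134 and 120.5 CPM in MockUP. Its DN values were 153, 137, 119 and 138 CPM in Foxp3DN, against 146, 130.0, 120.0 and 142 CPM in MockDN. The MockUP libraries were closely spaced, all Foxp3UP libraries lay above every library of the other 3 groups, and the DN groups overlapped. Gbp3 averaged 187 ± 20.6 CPM in Foxp3UP and 125 ± 5.94 CPM in MockUP (SD, n = 4 each), and rose by 0.58 ± 0.10 (adjusted p = 0.00126). Gbp4 (chr5:105115767-105139586, minus strand) had 373, 412, 588 and 532 CPM in Foxp3UP, against 295, 343, 338 and 298 CPM in MockUP, and 433, 441, 348 and 433 CPM in Foxp3DN, against 390.4, 379, 357 and 407 CPM in MockDN. The UP groups did not overlap, replicates 3 and 4 of Foxp3UP were the highest of all libraries, and Foxp3DN 3 was low in its group. Gbp4 rose by 0.58 ± 0.13 (adjusted p = 0.00724), and by 0.30 within replicates 1 and 2 and 0.82 within replicates 3 and 4.

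Gbp7 (chr3:142530342-142550149, plus strand) had 342, 314, 396 and 347 CPM in Foxp3UP, against 249, 246, 237 and 208 CPM in MockUP, and 296, 299.9, 254 and 278 CPM in Foxp3DN, against 281, 288, 228 and 256 CPM in MockDN. Each Foxp3UP library lay above every library of the other groups, and the rise over MockUP was 0.57 ± 0.10 (adjusted p = 0.00143). Gbp6 (chr5:105270702-105293698, minus strand) had 160.3, 175, 248 and 216 CPM in Foxp3UP, against 143, 152, 173 and 139 CPM in MockUP, and 239, 232, 187 and 222 CPM in Foxp3DN, against 206, 193, 183 and 194 CPM in MockDN. Here 1 Foxp3UP library lay below the highest MockUP library, and Gbp6 was the called member whose UP groups overlapped. Its rise of 0.40 ± 0.12 (adjusted p = 0.0442) lost its call without Foxp3UP 3 (adjusted p = 0.154), Foxp3UP 4 (0.113), MockUP 1 (0.0773), MockUP 2 (0.0512) or MockUP 4 (0.105). Of its 50-base words, 65.0% also occur in Gm43302, an overlapping gene on the same strand. Gbp5 had 32.8 to 53.9 CPM in Foxp3UP and 32.6 to 41 CPM in MockUP, and 38.2 to 48.5 CPM in Foxp3DN and 34.5 to 44.9 CPM in MockDN, with a UP difference of 0.32 ± 0.15 (adjusted p = 0.17) that passed without Foxp3UP 1 (0.46, adjusted p = 0.0279) and with the block (0.30, adjusted p = 0.0232).

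**Figure D2:**
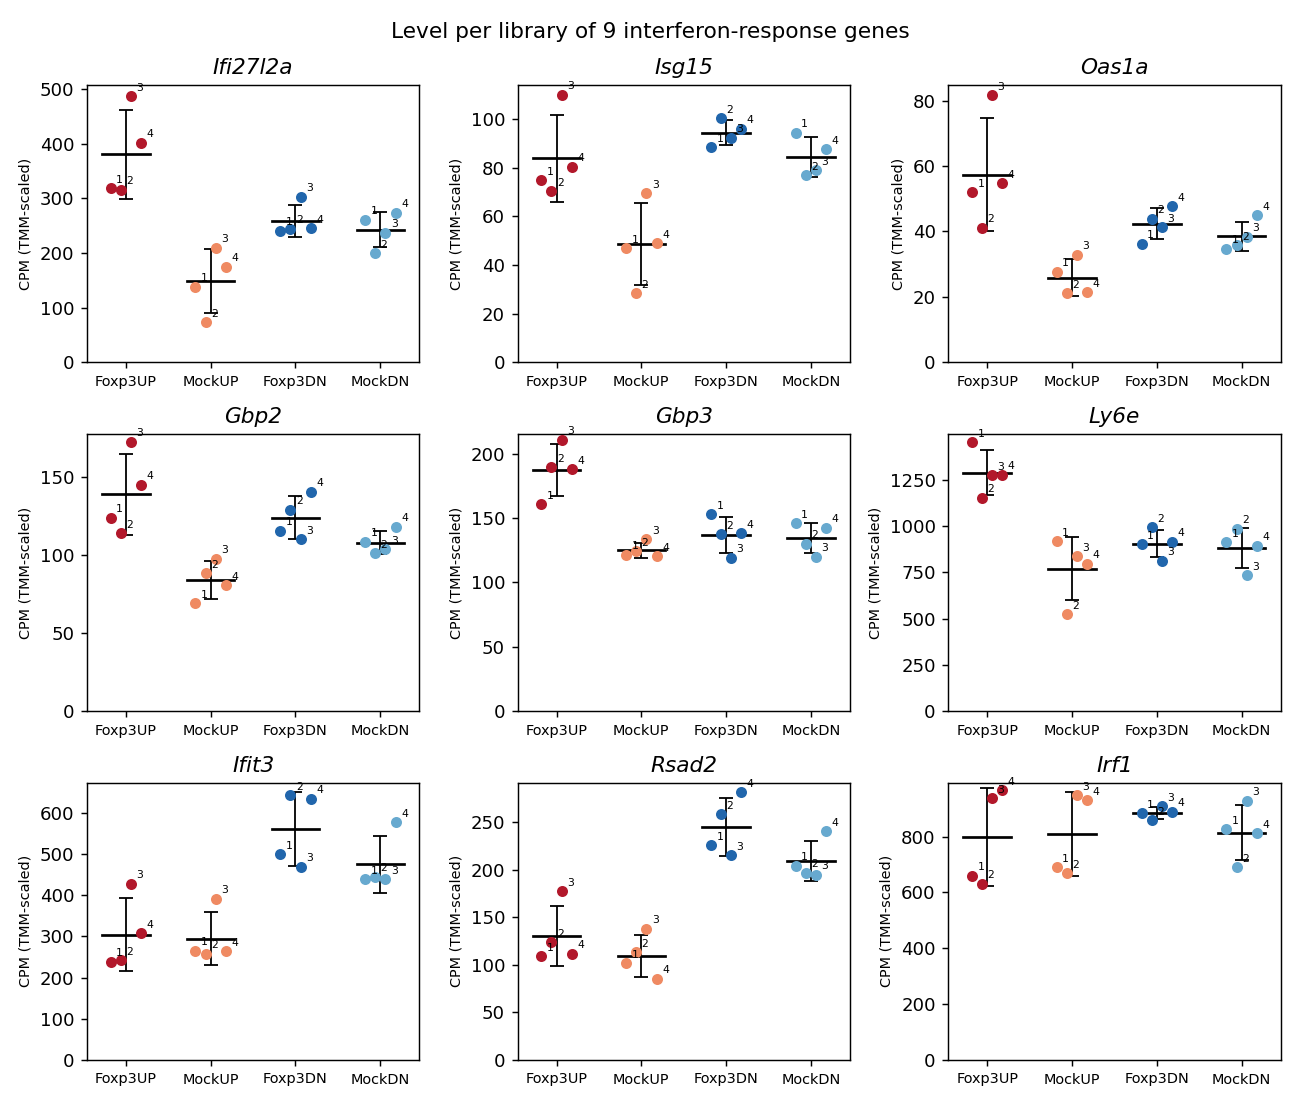
TMM-scaled CPM of 9 members in each library (points, numbered by replicate), by group, with the group mean (bar) and SD (whiskers, n = 4), on linear axes from 0. Ifi27l2a, Isg15, Oas1a, Gbp2, Gbp3 and Ly6e separate Foxp3UP from MockUP, Ifit3 and Rsad2 have both UP groups below both DN groups, and Irf1 overlaps in all groups.

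Isg15 was the 1 of 4 genes called among ISG15 and the modifiers of ubiquitin and ADP-ribose chains. Isg15 (chr4:156199455-156200796, minus strand), whose product is attached to other proteins like ubiquitin, had 74.9, 70.4, 110.0 and 80.4 CPM in Foxp3UP, against 47, 28.4, 69.6 and 49 CPM in MockUP. Its DN values were 88.5, 100.5, 92.4 and 96.1 CPM in Foxp3DN, against 94.4, 76.9, 79 and 87.6 CPM in MockDN. All Foxp3UP libraries lay above all MockUP libraries, though Foxp3UP 2 exceeded MockUP 3 by little, and MockUP lay below all DN libraries. Isg15 rose by 0.79 ± 0.19 (adjusted p = 0.0128), and the call ended without Foxp3UP 3 (0.63, adjusted p = 0.0509). Usp18 (chr6:121245906-121270917, plus strand), the protease that removes ISG15 and restrains the type I receptor, had 130.3, 134, 219 and 138 CPM in Foxp3UP, against 112, 107, 169.8 and 107 CPM in MockUP, and 194, 282, 181 and 229 CPM in Foxp3DN, against 181, 233, 174 and 221 CPM in MockDN. Replicate 3 stood apart as high in both UP groups, and the UP groups overlapped. Usp18 differed by 0.33 ± 0.19 (adjusted p = 0.291), called with the block (0.32, adjusted p = 0.00205). Parp9, which acts in a complex with Dtx3l, had 139 to 188 CPM in Foxp3UP and 107 to 159.9 CPM in MockUP, and 138 to 194 CPM in Foxp3DN and 125 to 172 CPM in MockDN, and Dtx3l, a ubiquitin ligase, had 157 to 206 CPM in Foxp3UP and 110.0 to 184 CPM in MockUP, and 138 to 189 CPM in Foxp3DN and 152 to 173 CPM in MockDN. Neither was called by the main test in the UP arm, at 0.29 ± 0.14 (adjusted p = 0.191) for Parp9 and 0.30 ± 0.14 (adjusted p = 0.186) for Dtx3l. The block called Parp9 (0.30, adjusted p = 0.00479). Without MockUP 2 Dtx3l passed the test (0.45, adjusted p = 0.0196). Parp9 and Dtx3l overlap on opposite strands in 9.40% of the exonic bases of Parp9 and 8.00% of those of Dtx3l, and no source used here says whether counting used strand, so reads there cannot be told apart. Beside Gbp6, larger shares overlapped another gene in Irf1 (20.0%, Gm17334), Ifi35 (16.8%, Gm11626), Rtp4 (13.9%, Gm45338) and Gbp7 (11.3%, Gm43802). For Rtp4 and Gbp7 the other gene lies on the same strand. Counts of these members carry the same limit.

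Of the other 12 antiviral effectors, 6 were higher in Foxp3UP than in MockUP, with a median log2 fold change of 0.53. Ifi27l2a (chr12:103442167-103443680, minus strand), a small interferon-induced membrane protein, had 318, 315, 486 and 401 CPM in Foxp3UP, against 138, 72.8, 209.6 and 174 CPM in MockUP. Among DN libraries it had 240.5, 244, 303 and 245 CPM in Foxp3DN, against 261, 199, 237 and 273 CPM in MockDN. MockUP 2 was the lowest library, Foxp3UP lay above every library of the other groups, and the DN groups overlapped. Group means were 380.3 ± 81.2 CPM in Foxp3UP and 149 ± 58.5 CPM in MockUP (SD, n = 4 each), and the rise was 1.36 ± 0.23 (adjusted p = 0.00133), or 2.56-fold. Isg20 (chr7:78913424-78920396, plus strand), an exonuclease that degrades viral RNA, had 141, 139, 208 and 159 CPM in Foxp3UP, against 78.6, 45.7, 112 and 73.5 CPM in MockUP, and 129, 139, 139.9 and 160.1 CPM in Foxp3DN, against 132, 127, 126 and 147 CPM in MockDN. Foxp3UP and MockUP did not overlap, and MockUP was below all DN libraries. Isg20 rose by 1.06 ± 0.19 (adjusted p = 0.00186). Ly6e (chr15:74955051-74959905, plus strand), a lipid-anchored surface protein that restricts the entry of some viruses, had 1453, 1153, 1276 and 1279 CPM in Foxp3UP, against 919, 525, 837 and 796 CPM in MockUP. Its DN levels were 902, 995, 814 and 915 CPM in Foxp3DN, against 912, 987, 735 and 895 CPM in MockDN. The 4 Foxp3UP libraries were the highest of all 16, MockUP 2 the lowest. Ly6e rose by 0.75 ± 0.14 (adjusted p = 0.00298). Rtp4 (chr16:23520291-23614222, plus strand), a transmembrane protein that restricts some RNA viruses, had 130.5, 118, 170.2 and 129 CPM in Foxp3UP, against 83.2, 52.6, 107 and 74.9 CPM in MockUP, and 147, 159, 128 and 153 CPM in Foxp3DN, against 132, 116, 102 and 132 CPM in MockDN. Each Foxp3UP library lay above each MockUP library, and Rtp4 rose by 0.79 ± 0.17 (adjusted p = 0.00575).

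Cmpk2 (chr12:26469204-26479837, plus strand), a mitochondrial nucleotide kinase, had 105, 95.9, 133 and 96.3 CPM in Foxp3UP, against 78.4, 82.7, 85 and 60.4 CPM in MockUP, and 144, 148, 114 and 122 CPM in Foxp3DN, against 128, 124, 104 and 124 CPM in MockDN. The UP groups did not overlap, and every Mock library of the UP arm lay below every DN library. Cmpk2 rose by 0.49 ± 0.13 (adjusted p = 0.0201), a call that ended without Foxp3UP 3 (0.37, adjusted p = 0.0842) or MockUP 4 (0.38, adjusted p = 0.0647). Xaf1 (chr11:72301629-72313733, plus strand), which promotes apoptosis, had 123, 131, 169 and 127 CPM in Foxp3UP, against 91.3, 65.1, 117 and 94.4 CPM in MockUP, and 125, 139.5, 127 and 148 CPM in Foxp3DN, against 123, 110.4, 111 and 139 CPM in MockDN. Its UP groups did not overlap, and the rise was 0.58 ± 0.15 (adjusted p = 0.0157), ending without Foxp3UP 3 (0.46, adjusted p = 0.0601). Rsad2 (chr12:26442746-26456452, minus strand), viperin, which makes a nucleotide that terminates viral RNA chains, had 109, 123, 177 and 112 CPM in Foxp3UP, against 101, 113, 138 and 85.1 CPM in MockUP. The DN values of Rsad2 were 226, 258, 215 and 282 CPM in Foxp3DN, against 204, 197, 195 and 240.2 CPM in MockDN. UP groups overlapped, and every UP library was below every DN library. The UP difference was 0.25 ± 0.16 (adjusted p = 0.335), called with the block (0.25, adjusted p = 0.0225). Mx1 (chr16:97447035-97462907, minus strand), a dynamin-like GTPase whose C57BL/6 allele is known to be defective, had 125, 136, 175 and 121 CPM in Foxp3UP, against 108, 139.9, 139.6 and 97.1 CPM in MockUP, and 196, 223, 148 and 217 CPM in Foxp3DN, against 166, 179, 139 and 180.3 CPM in MockDN. The UP groups overlapped, at 0.20 ± 0.15 (adjusted p = 0.431). Bst2 (chr8:71534255-71537456, minus strand), tetherin, which holds budding virus at the cell surface, had 181, 196, 282 and 227 CPM in Foxp3UP, against 148, 93.6, 226 and 191 CPM in MockUP. Its DN values were 233, 233, 303 and 275 CPM in Foxp3DN, against 243, 202, 249 and 265 CPM in MockDN. MockUP 2 was its lowest library, the UP groups overlapped, and the difference was 0.43 ± 0.20 (adjusted p = 0.185), called with the block (0.48, adjusted p = 0.0111). The other 3, not called by the main test in the UP arm, were Ifi35, an interferon-induced partner of Nmi (0.25 ± 0.13, adjusted p = 0.245), Ifi44, an interferon-induced antiviral protein at 1.4 to 7.0 CPM (0.97 ± 0.36, adjusted p = 0.0916), and Trim30a, a regulator of inflammatory signalling (0.28 ± 0.10, adjusted p = 0.0886). All 3 were called with the block, at 0.27, adjusted p = 0.0279 for Ifi35, 0.97, adjusted p = 0.0157 for Ifi44 and 0.29, adjusted p = 0.00729 for Trim30a. In the main test Ifi44 passed without Foxp3UP 4 (1.17, adjusted p = 0.0483) or MockUP 1 (1.25, adjusted p = 0.0414).

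Of the 18 calls in the UP arm, 13 held in each of the 8 fits that left out 1 library of these groups, and 17 of the 18 were of members whose groups did not overlap. Of the 38 members, 17 had Foxp3UP wholly above MockUP (8.61% of all genes) and 0 wholly below (7.29%). With only these 8 libraries in the fit, 8 members were higher, and 2.53% of all genes. Within replicates 1 and 2, 11 members were higher with a median of 0.31 (4.43% of all genes), and within replicates 3 and 4, 15 with a median of 0.61 (4.64%), both from 1 fit that shares the spread of all 16 libraries. Of the 18 calls, 10 were made within replicates 1 and 2 and 13 within replicates 3 and 4.

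Values of single members within these sets rest on 2 libraries per group. Oas2 differed by 0.52 within replicates 1 and 2 (adjusted p = 0.264) and 1.33 within replicates 3 and 4 (adjusted p = 0.0131). Gbp6 differed by 0.19 within replicates 1 and 2 (adjusted p = 0.339) and 0.57 within replicates 3 and 4 (adjusted p = 0.0106), and Cmpk2 by 0.32 within replicates 1 and 2 (adjusted p = 0.205) and 0.66 within replicates 3 and 4 (adjusted p = 0.0218). These 3, with Gbp4, had log2 fold changes over 1.5 times apart, and were called only in the second set. Zbp1 and Gbp7 were also over 1.5 times apart. Zbp1 differed by 0.41 (adjusted p = 0.0824) and 0.69 (adjusted p = 0.00803). Gbp7, called in both sets, differed by 0.41 (adjusted p = 0.0346) and 0.74 (adjusted p = 0.00102). Dtx3l, not called over all 4 replicates, stood at -0.01 within replicates 1 and 2 (adjusted p = 0.963) and 0.63 within replicates 3 and 4 (adjusted p = 0.0165), and Ifit2 at 0.11 within replicates 1 and 2 (adjusted p = 0.786) and 0.78 within replicates 3 and 4 (adjusted p = 0.0441). Bst2 was higher in the first set, at 0.64 within replicates 1 and 2 (adjusted p = 0.0386) and 0.29 within replicates 3 and 4 (adjusted p = 0.36). The sign itself turned for Oas3, at -0.46 within replicates 1 and 2 (adjusted p = 0.336) and 0.72 within replicates 3 and 4 (adjusted p = 0.184), with Dtx3l, Ifih1, Irf1, Ifit3 and Stat2 also negative in the first set and positive in the second. Irf7 and Zbp1 were called in the second set and not in the first, Isg15, Ly6e and Xaf1 in the first and not in the second, and Dhx58 and Oasl1 in neither. The difference between the sets was not tested.

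Markers of macrophages and monocytes (11 genes) summed to 56.2 to 81.4 CPM in Foxp3UP, against 45.6 to 63.5 CPM in MockUP, and 43.5 to 65.3 CPM in Foxp3DN, against 43.2 to 54.9 CPM in MockDN. Melanocytic genes (4) summed to 60.8 to 141 CPM in Foxp3UP, 61.1 to 91.2 CPM in MockUP, 35.5 to 79.4 CPM in Foxp3DN and 22.7 to 72.0 CPM in MockDN. Of the macrophage list, Cd68 alone was called in the UP arm, with 20.3 to 29.2 CPM in Foxp3UP and 9.87 to 16.6 CPM in MockUP (0.86 ± 0.16, adjusted p = 0.00207), and it was also higher than in Foxp3DN (0.97 ± 0.16, adjusted p = 0.000929). Of the 9 tested genes of this list, 7 were positive and 2 negative in the UP arm. The negative ones were Apoe, with 5.57 to 7.05 CPM in Foxp3UP and 7.55 to 10.2 CPM in MockUP, and Csf1r, with means of 5.89 and 7.25 CPM. Stromal markers (5) summed to 0.793 to 8.14 CPM in Foxp3UP, 0.285 to 2.595 CPM in MockUP, 0 to 2.12 CPM in Foxp3DN and 0 to 0.317 CPM in MockDN. The stromal gene Col3a1 had 0.264 to 4.34 CPM in Foxp3UP, against 0 to 1.08 CPM in MockUP (adjusted p = 0.0692) and 0 to 0.168 CPM in Foxp3DN (adjusted p = 0.0199, called). Epithelial markers (3) summed to 7.49 to 16.8 CPM in Foxp3UP, 3.61 to 9.30 CPM in MockUP, 4.33 to 7.98 CPM in Foxp3DN and 5.55 to 7.46 CPM in MockDN. Among them Epcam had 7.14 to 14.5 CPM in Foxp3UP, against 2.85 to 8.28 CPM in MockUP (0.82 ± 0.31, adjusted p = 0.095, not called) and 3.78 to 7.14 CPM in Foxp3DN (1.01 ± 0.31, adjusted p = 0.0399, called). Dendritic cell markers (6) summed to 22.0 to 33.2 CPM in Foxp3UP and 18.9 to 30.3 CPM in MockUP. B cell markers (4) summed to 4.57 to 7.92 CPM in Foxp3UP and 3.80 to 5.84 CPM in MockUP, with Ms4a1 at 0 in all libraries and Cd79b making up most of the sum. Endothelial markers (3) summed to 53.9 to 63.1 CPM in Foxp3UP and 47.6 to 68.4 CPM in MockUP, nearly all from Pecam1, with Cdh5 at 0. Siglech of plasmacytoid dendritic cells was also at 0. The part of these cells in the result was not tested, and in such bulk samples fewer cells of a type and less RNA per cell cannot be told apart.

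**Figure D3:**
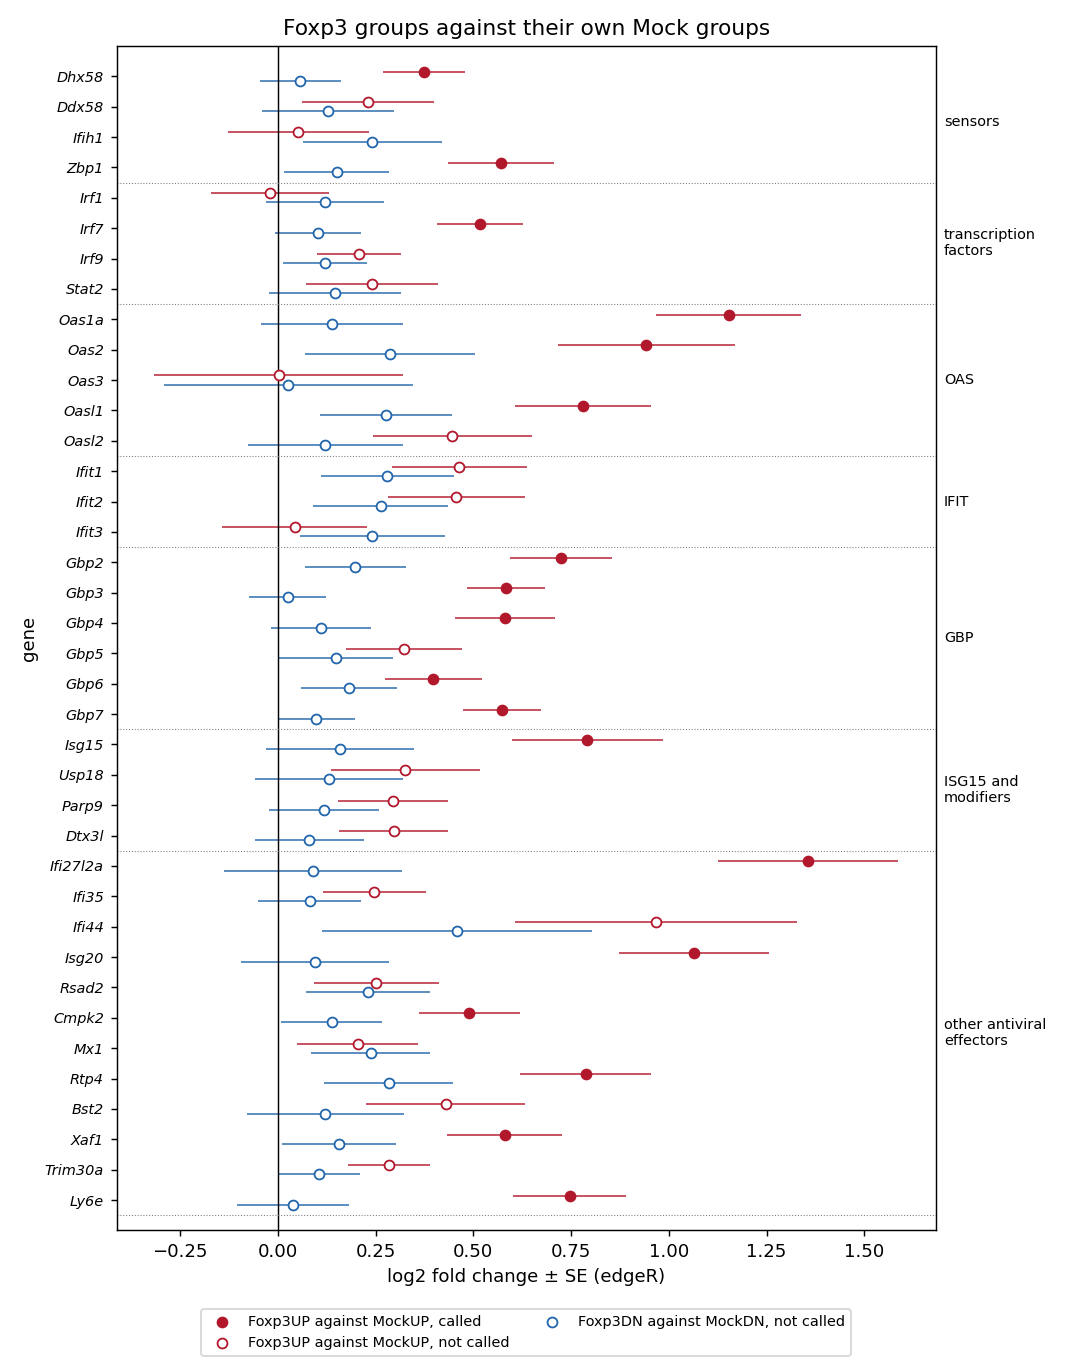
Log2 fold change ± SE from edgeR for each of the 38 tested members (rows, by role), Foxp3UP against MockUP in red and Foxp3DN against MockDN in blue, filled where adjusted p was under 0.05. Filled points appear only in red, 18 of them, and all blue points lie right of 0 without passing the test.

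No member was called in Foxp3DN against MockDN, where 0.00729% of all genes were called in either direction (1 of 13711, lower), and 0 of 38 members had an unadjusted p under 0.05 (1.04% of all genes). The DESeq2 test and the replicate block also called 0 members. All 38 log2 fold changes were positive, from 0.03 for Gbp3 to 0.46 for Ifi44. For 0 members did Foxp3DN lie wholly above MockDN (0.547% of all genes) or wholly below it (0.598%). Of the members called in the UP arm, Ifi27l2a differed by 0.09 ± 0.23, Ly6e by 0.04 ± 0.14 and Isg20 by 0.10 ± 0.19. The largest DN differences beside Ifi44 were those of Oas2 (0.29 ± 0.22), Oasl1 (0.28 ± 0.17), Rtp4 (0.28 ± 0.17) and Ifit1 (0.28 ± 0.17). Same-numbered pairs put Foxp3DN above MockDN for 32, 38, 29 and 33 of 38 members, with medians of 0.10, 0.29, 0.10 and 0.10 on the log2 scale, against 48.5% to 50.9% of all genes. The median of 0.13 lay at 0.19 within replicates 1 and 2 and at 0.11 within replicates 3 and 4.

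The difference between the UP and DN effects was tested as an interaction, which the low MockUP also enters. It was positive for 33 of 38 members, with a median of 0.31, but only Gbp3 passed the test, at 0.56 ± 0.14 (adjusted p = 0.0494), where 1.83% of all genes were called, 0.963% higher and 0.868% lower. The Gbp3 call held in 10 of 27 other settings and ended without any 1 of 11 libraries: Foxp3UP 2, 3 or 4, MockUP 3 or 4, Foxp3DN 2, 3 or 4, or MockDN 1, 2 or 4, with adjusted p up to 0.110 there. Larger but less precise differences were those of Ifi27l2a at 1.27 ± 0.32 (adjusted p = 0.0535), Oas1a at 1.01 ± 0.26 (adjusted p = 0.0537), Isg20 at 0.97 ± 0.27 (adjusted p = 0.0735) and Ly6e at 0.71 ± 0.20 (adjusted p = 0.082), none of them called. With the replicate block 15 members were called higher, and 6.53% of all genes, among them these 4 (Oas1a at adjusted p = 0.000541, Isg20 at 0.000961, Ifi27l2a at 0.00153 and Ly6e at 0.00167). The other 10 that the block added were Dhx58, Zbp1, Irf7, Oasl1, Gbp2, Gbp4, Gbp7, Isg15, Rtp4 and Xaf1, with differences from 0.32 (Dhx58) to 0.67 (Isg15). The block called no IFIT gene, Rsad2 or Mx1 in this test. DESeq2 called 6 members higher, and 1.04% of all genes. The median was 0.12 within replicates 1 and 2 and 0.50 within replicates 3 and 4.

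The Foxp3 groups were also set against each other. Of 38 members, 2 were higher in Foxp3UP than in Foxp3DN, 4 were lower and 32 did not pass the test, against 6.00% higher and 5.78% lower of all genes, and the median was -0.09. The IFIT family had a median of -0.57 and 2 of 3 members lower, while guanylate-binding proteins had a median of 0.18 and 1 of 6 higher. Rsad2 averaged 130.3 ± 31.9 CPM in Foxp3UP and 245 ± 30.4 CPM in Foxp3DN (SD, n = 4 each) and fell by 0.91 on the log2 scale (adjusted p = 0.00163), with groups that did not overlap. Ifit3 fell by 0.89 (adjusted p = 0.00521), with groups that also did not overlap, and its near copy Ifit3b fell by 1.03 (adjusted p = 0.00358). Ifit1 (-0.57 ± 0.17, adjusted p = 0.0377) and Mx1 (-0.49 ± 0.15, adjusted p = 0.0462) were lower with groups that overlapped. Gbp3 (0.45 ± 0.10, adjusted p = 0.00672) and Ly6e (0.51 ± 0.14, adjusted p = 0.0281) were higher, with no overlap. Oas1a (0.44 ± 0.18, adjusted p = 0.13) and Ifi27l2a (0.56 ± 0.23, adjusted p = 0.124) were not called, although the Ifi27l2a groups did not overlap. Foxp3UP lay wholly above Foxp3DN for 4 of the 38 members (11.7% of all genes) and wholly below for 2 (11.2%). Groups without overlap were thus no more common among the members than among all genes.

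Rsad2, Ifit3 and Gbp3 kept these calls in each of the 8 fits that left out 1 library of the Foxp3 groups. Ifit1 and Mx1 each lost theirs without Foxp3UP 1, 2 or 4 or Foxp3DN 1, 2 or 4 (adjusted p up to 0.111 for Ifit1 and 0.126 for Mx1), and Ly6e without Foxp3UP 1, 3 or 4 or Foxp3DN 1, 3 or 4 (up to 0.106). With the replicate block 4 members were higher and 6 lower, where 1503 of the 13711 genes were higher (11.0%) and 1252 lower. Here the block joined UP and DN libraries of the same number, a pairing that was not checked. The block added Gbp7 (0.32, adjusted p = 0.0306), Ifi27l2a (0.54, adjusted p = 0.0314), Ifih1 (-0.48, adjusted p = 0.038) and Usp18 (-0.53, adjusted p = 0.0483). The median was -0.28 within replicates 1 and 2, where 0 were called higher and 5 lower (350 and 420 of all genes), and 0.12 within replicates 3 and 4, where 3 were called higher and 1 lower (724 and 666 of all genes). Ifit1 differed by -1.01 in the first set and -0.13 in the second, and Ifit3 by -1.25 and -0.59, while Rsad2 differed by -1.06 and -0.78.

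**Figure D4:**
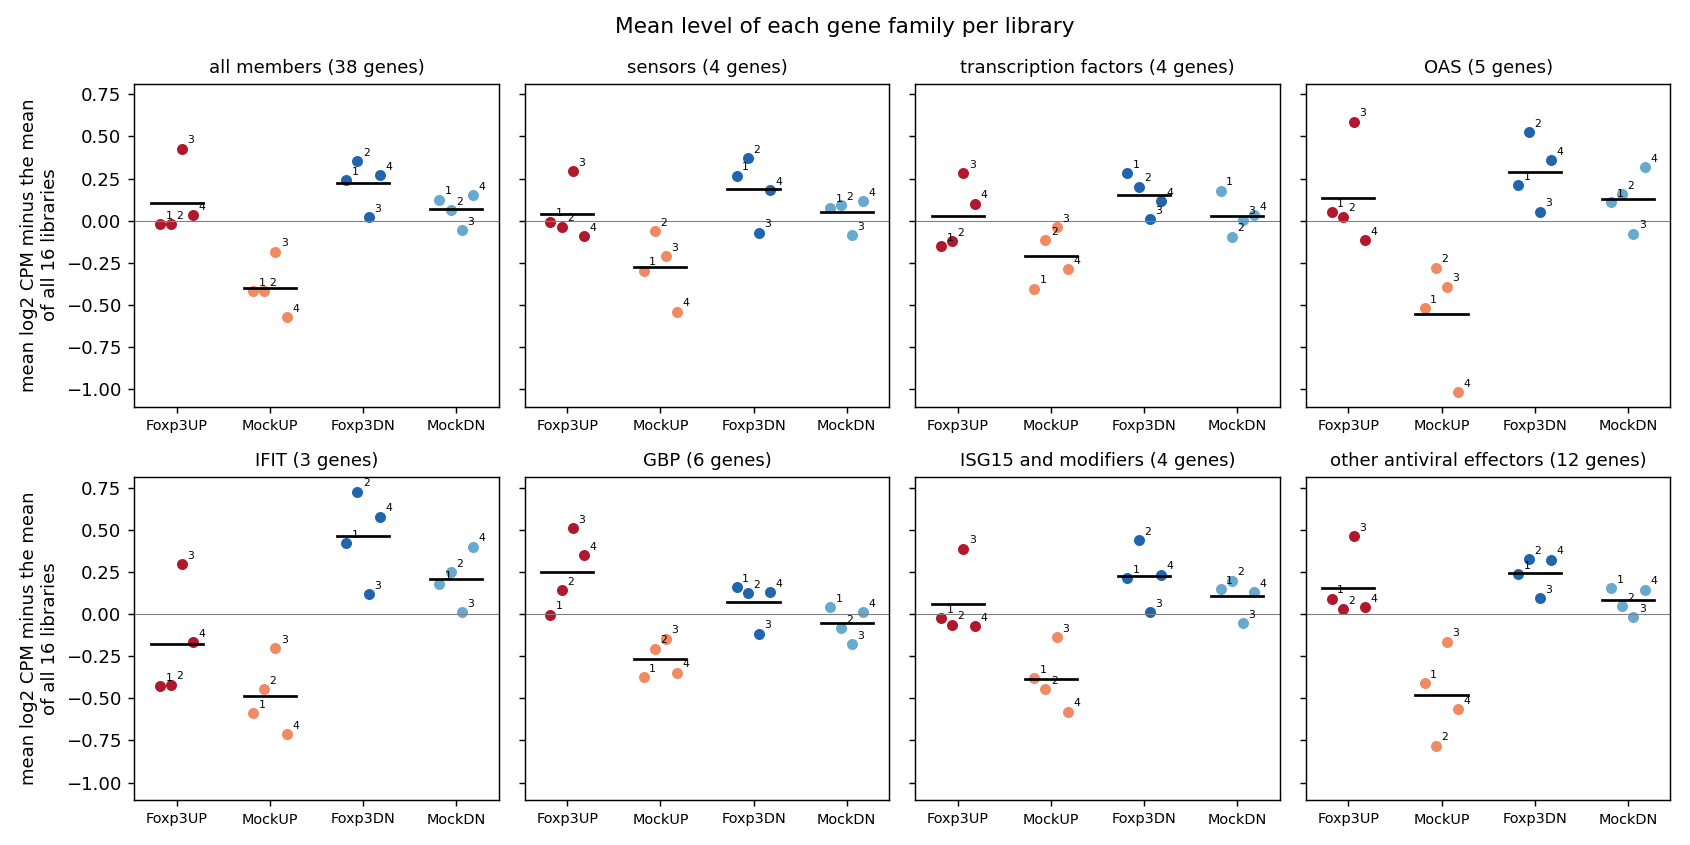
Mean log2 CPM of each role's tested members in each library (points, numbered by replicate), as the deviation from the mean of all 16 libraries, with the group mean (bar). MockUP is lowest in each panel, Foxp3UP lies below both DN groups for the IFIT family, and Foxp3UP is the highest group for the guanylate-binding proteins.

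By library, the IFIT family's mean deviation was -0.43 to 0.29 in Foxp3UP, against -0.71 to -0.20 in MockUP, and 0.12 to 0.73 in Foxp3DN, against 0.01 to 0.40 in MockDN. The guanylate-binding proteins stood at -0.0043 to 0.51 in Foxp3UP, against -0.37 to -0.15 in MockUP, and at -0.12 to 0.16 in Foxp3DN, against -0.18 to 0.04 in MockDN. Foxp3UP 3 was the one Foxp3UP library whose IFIT mean reached the DN libraries.

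Between the Mock groups, all 38 members had a negative log2 fold change in MockUP against MockDN, with a median of -0.40 against 0.01 over all genes. None passed the adjusted test in edgeR (0.00729% of all genes called, 1 gene, higher), and 24 of 38 had an unadjusted p under 0.05 (3.16% of all genes). The 4 libraries of MockUP lay wholly below those of MockDN for 18 of 38 members, against 1.09% of all genes. The differences with the smallest p were those of Rsad2 (-0.93 ± 0.16, adjusted p = 0.128), Cmpk2 (-0.65 ± 0.13, adjusted p = 0.376), Oasl2 (-0.91 ± 0.20, adjusted p = 0.468) and Ifit1 (-0.76 ± 0.17, adjusted p = 0.472). The guanylate-binding proteins had a median of -0.22. The difference was -0.11 ± 0.10 for Gbp3 and -0.01 ± 0.15 for Irf1. DESeq2 called 4 members lower, among 7 lower genes in all: Rsad2 (-0.93, adjusted p = 0.00027), Cmpk2 (-0.64, 0.0174), Oasl2 (-0.90, 0.0389) and Ifit1 (-0.75, 0.0488). In edgeR Rsad2 was called without MockUP 3 (-1.07, adjusted p = 0.0316) and without the filter on low counts (adjusted p = 0.0182). Comparisons that share a group are not independent. The low MockUP enters Foxp3UP against MockUP, MockUP against MockDN and the difference of the UP and DN effects.

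**Figure D5:**
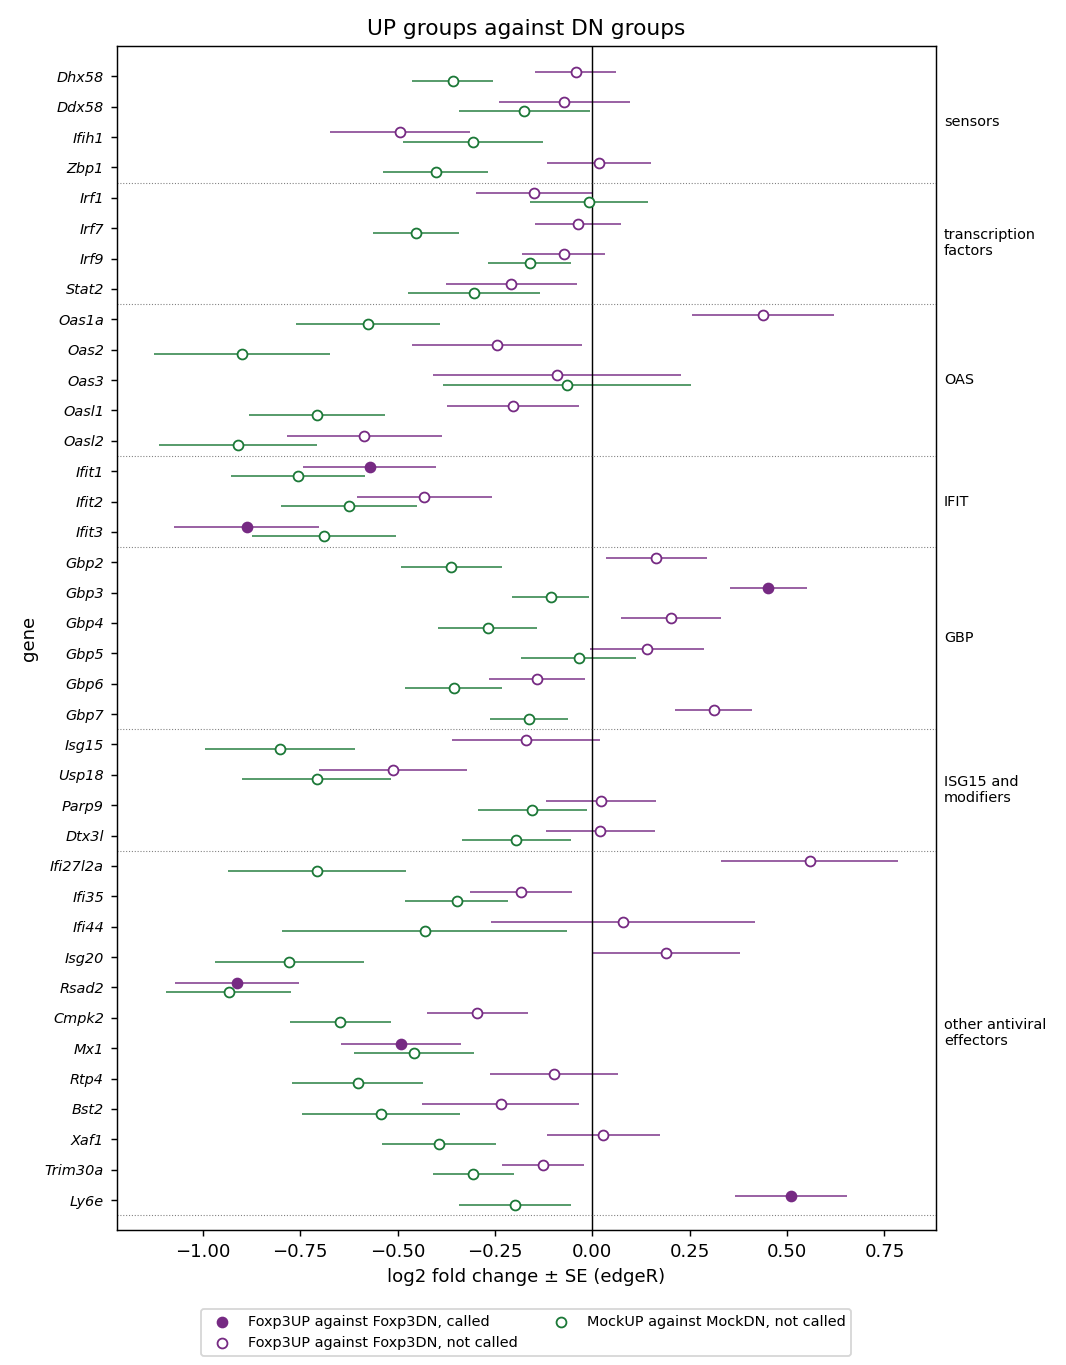
Log2 fold change ± SE from edgeR for each of the 38 tested members (rows, by role), Foxp3UP against Foxp3DN in purple and MockUP against MockDN in green, filled where adjusted p was under 0.05. All green points lie left of 0 and none is filled, and the purple points fall on both sides, with 2 filled on the right and 4 on the left.

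Of 11 listed interferon ligands, only Ifng was tested, and the other 10 (Ifnb1, Ifna1, Ifna2, Ifna4, Ifna5, Ifne, Ifnk, Ifnl2, Ifnl3 and Ifnz) had group means of at most 0.0753 CPM. Ifng, interferon gamma, averaged 420.3 ± 83.9 CPM in Foxp3UP and 493 ± 203 CPM in MockUP, and 598 ± 142 CPM in Foxp3DN and 577 ± 89.7 CPM in MockDN (SD, n = 4 each). It did not pass the test, at -0.23 ± 0.25 (adjusted p = 0.615) in the UP arm and -0.51 ± 0.25 (adjusted p = 0.21) in Foxp3UP against Foxp3DN. Receptor and signalling genes were read beside it. Of 10 tested, 3 were higher in the UP arm and 1 lower (6.08% and 5.99% of all genes). Of the 10, 5 were positive and 5 negative, with a median of 0.00. Ifngr1, the binding chain of the interferon gamma receptor, rose by 0.26 ± 0.08 (adjusted p = 0.0495) over MockUP and by 0.27 ± 0.08 (adjusted p = 0.0498) over Foxp3DN. Il10rb, a chain shared by the interleukin-10 and lambda interferon receptors, rose by 0.44 ± 0.12 (adjusted p = 0.0233), and Stat3 fell by 0.46 (adjusted p = 0.0417). The type I receptor chains were not called in the UP arm, at -0.01 ± 0.14 for Ifnar1 and 0.12 ± 0.14 for Ifnar2, nor was Ifngr2 at about 2 to 3 CPM (-0.16 ± 0.33). Neither in the DN arm nor in MockUP against MockDN was any gene of these lists called.

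Among 11 tested genes of nucleic acid sensing, Tmem173 (STING), the adaptor of cytosolic DNA sensing, rose by 0.52 ± 0.10 (adjusted p = 0.00267) in Foxp3UP over MockUP and by 0.48 ± 0.10 (adjusted p = 0.00454) over Foxp3DN, and Aim2, a DNA sensor, by 0.48 ± 0.14 (adjusted p = 0.0352) over MockUP. Of 10 inhibitors, 2 were lower in the UP arm and none higher (5.99% and 6.08% of all genes). Socs1, which blocks Janus kinases, fell by 0.41 against MockUP (adjusted p = 0.0154) and by 0.46 against Foxp3DN (adjusted p = 0.00754). Irf2bp2, a corepressor that acts with Irf2, fell by 0.83 (adjusted p = 0.0128) and by 0.91 (adjusted p = 0.00772) in the same comparisons.

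A further list of 69 interferon-stimulated genes, 68 of them tested, was read beside the members. In the UP arm 21 of 68 were higher and 0 lower (6.08% and 5.99% of all genes), with a median of 0.37. Those with the smallest adjusted p were Iigp1, a GTPase that attacks parasite vacuoles (1.73 ± 0.21, adjusted p = 9.59e-05), Ifit1bl1, an Ifit1-like gene (1.40 ± 0.22, adjusted p = 0.000909), Ddx60, a helicase (1.17 ± 0.20, adjusted p = 0.00117), and Epsti1 (0.64 ± 0.11, adjusted p = 0.00133). In Foxp3DN against MockDN none was called, 58 of 68 were positive and the median was 0.12. In MockUP against MockDN none was called, 63 of 68 were negative and the median was -0.27. In Foxp3UP against Foxp3DN 3 of 68 were higher and 4 lower, close to the 6.00% and 5.78% of all genes. Iigp1 had the smallest adjusted p of those higher (1.04 ± 0.20, adjusted p = 0.00364). The lower ones were Cxcl10, a chemokine (-1.04 ± 0.19, adjusted p = 0.00203), Ifit3b, Slfn5 (-0.99 ± 0.20, adjusted p = 0.00383) and Daxx (-0.51 ± 0.12, adjusted p = 0.00783). Iigp1 was the gene of this list whose UP effect exceeded its DN effect in the interaction test (1.42 ± 0.29, adjusted p = 0.0213).

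Promoter windows were found for 28 of the 39 members. Dhx58, Zbp1, Oas2, Gbp4, Gbp6, Usp18, Parp9, Ifi27l2a, Mx1, Rtp4 and Ly6e were not matched. The ISRE letters, searched on both strands, occurred in 16 of the 28 (57.1%), against 3.99% of all 27025 genes with windows. The GAS letters, which read the same on both strands and can share bases with an ISRE match, occurred in 8 of 28 (28.6%), against 9.55% of all genes. Of the tested members with ISRE letters, 5 of 15 were higher in the UP arm, and of those without, 5 of 12 (6.08% of all genes). In Foxp3UP against Foxp3DN, members with ISRE letters had 1 higher (Gbp3) and 3 lower (Ifit1, Ifit3 and Rsad2) of 15, and members without had 0 of 12 called. Of all genes, 6.00% were higher and 5.78% lower there. These counts describe the letters in these windows and were not tested.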

How the data were processed

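RNA of sorted OT1 cells was sequenced in 16 libraries. The authors deposited unnormalised read counts for each gene, in a table whose columns carry the sample numbers of the titles. Per the submitters' processing notes, STAR 2.6.1, Subread 1.6.3 and the mouse build mm10 were used, while no source used here gives the counting options. Symbols are those of GENCODE M21, which holds 55480 of the 55573 identifiers, and gene positions (mm10, counted from 1) are as the count table lists them. No column held values of another sample.

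Genes that passed filterByExpr (minimum count 10) were TMM-scaled and compared in edgeR 4.0.16 under R 4.3.3, with a robust quasi-likelihood F test, 1 term per group and all 16 libraries. Tests were two-sided with Benjamini-Hochberg adjustment over 13711 genes, and a call is an adjusted p under 0.05. An SE is the size of the log2 fold change over the square root of F. Mean deviations use log2 CPM with a prior count of 2. At 9389477 to 13226590 counts per library, the tested members had at least 13 counts in each. The 5 comparisons share groups. The scripts were tested on simulated counts.

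Libraries of the same number deviated together from their group means, with correlations across genes of 0.632, 0.212, 0.300 and 0.407 for UP pairs 1 to 4 and of 0.362, 0.576, 0.544 and 0.296 for DN pairs. All were over 0.1, so the replicate number of the titles was taken to pair samples. The fit with it as a block is printed beside the calls it changes. Within a replicate set, libraries of unlike number also correlated, at 0.043 to 0.367 in the UP arm. In the DN arm these values were 0.165 to 0.234. Each Foxp3 library correlated most with the Mock library of its number, by little for Foxp3UP 2 (0.212 against 0.176). The 0.1 limit therefore cannot tell pairs from replicate sets. In Foxp3UP against Foxp3DN and MockUP against MockDN the block joined UP and DN libraries of the same number, which was not checked. The other alternatives were library totals or RLE size factors for scaling, no filter or at least 1 CPM in 4 libraries, DESeq2 1.42.0, only the libraries compared, replicates 1 and 2 or 3 and 4 alone, leaving out each library and, added after seeing the data, a fit with a term per group and replicate set.

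The members, gene lists, tests and rule for named genes were chosen with earlier results of these data known. The rule gave values per library for 14 fixed members and every other member called in any comparison, 27 in all, and up to 4 called genes per pathway list and comparison. Promoter sequences are those of RefSeq on GRCm38.p6. Some listed genes are not reported here.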

Additional observations from a re-analysis of the deposited data

Results flagged for a closer look

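Each group of 4 libraries was read for a library whose gap to the nearest of the others, divided by the range of the group, was above Dixon's critical value for groups of this size. Over 112 such sets (27 members with values per library and the mean of the members, in 4 groups) 8 met this, and chance gives about 1 in 20. In Foxp3UP, replicate 3 stood above the other libraries of its group in the mean deviation of the members, at 0.43 log2 units, in Irf7, at 398 CPM, and in Usp18, at 219 CPM. In MockUP, replicate 3 stood above the others in Ifit3, at 392 CPM, and in Usp18, at 169.8 CPM. In Foxp3DN, replicate 3 was the highest for Ifi27l2a, at 303 CPM, and stood below the others for Gbp4, at 348 CPM. In MockDN, replicate 4 was the highest for Ifit3, at 578 CPM. Replicate 3 held 7 of the 8, in 3 of the 4 groups.

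Gbp3 was the 1 member whose UP and DN effects differed in the test of the difference itself, by 0.56 on the log2 scale (edgeR, adjusted p = 0.0494). Leaving out single libraries ended this call, as given with the alternatives.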

How the results depend on the processing

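No called value changed its sign in any alternative run. Of the values of single members and of Foxp3 that could be set against the main ones, 654 kept their side of the threshold in Foxp3UP against MockUP, 65 were lost and 22 were gained. All 741 stayed uncalled in Foxp3DN against MockDN. For the members called higher in Foxp3UP than in MockUP (18, with 6.08% of all genes), the replicate block gave 30 (13.3% of all genes). The fit of only the libraries compared gave 8 (2.53%). Replicates 1 and 2 alone gave 0 (0.164%), and replicates 1 and 2 within the shared fit gave 11 (4.43%). The Foxp3 difference was 0.56 in both of these last fits (adjusted p = 0.207 and 0.0672). For the difference of the UP and DN effects (1 member called, with 0.963% of all genes higher), RLE size factors gave 0 (0.868% of all genes). The block gave 15 (6.53%) and DESeq2 6 (1.04%). Replicates 1 and 2 alone gave 0 (median 0.11, with 0.0143% of all genes), and replicates 3 and 4 alone 6 (median 0.48, with 5.00%). Within the shared fit, replicates 1 and 2 gave 0 (median 0.12) and replicates 3 and 4 a median of 0.50. For members lower in MockUP than in MockDN (0), the fit with no filter gave 1 (1 of all genes) and DESeq2 4 (7 of all genes). For members higher in Foxp3UP than in Foxp3DN (2), the block and the fit of only the libraries compared each gave 4 (11.0% and 8.77% of all genes). Replicates 1 and 2 gave 0 alone (median -0.29, with 0.528% of all genes) and 0 within the shared fit (median -0.28, with 2.55%). Replicates 3 and 4 alone gave 6 higher and 0 lower, where 1582 of 13647 genes were higher (11.6%) and 1858 lower. The median there was 0.10, on the other side of 0 from the main -0.09. Replicates 3 and 4 within the shared fit gave 1 lower (median 0.12), and 666 of all 13711 genes. The replicate block changed no other count by more than 1.5 times. Leaving out each library gave 13 to 18 members called higher in Foxp3UP than in MockUP (median 0.29 to 0.53), and 3.81% to 7.00% of all genes. Of the 18 calls, 13 held in every such fit. In Foxp3DN against MockDN, leaving out each library gave 0 (median 0.09 to 0.19). It gave 0 to 3 for the difference of effects (median 0.18 to 0.39), and 0.432% to 1.85% of all genes. The count was 0 without Foxp3UP 3 or 4, MockUP 4, Foxp3DN 2, 3 or 4, or MockDN 1, 2 or 4, and 3 without MockUP 1, 2 or 3. Leaving out each library gave 0 to 1 lower in MockUP than in MockDN (median -0.49 to -0.37), the 1 without MockUP 3. Between Foxp3UP and Foxp3DN it gave 1 to 3 higher and 2 to 7 lower (median -0.22 to -0.07), the 7 without Foxp3UP 3. Of all genes, 2.94% to 4.93% were higher and 433 to 791 genes lower in these fits. The Foxp3 difference ran over 0.79 to 1.08 in the UP arm and -0.40 to -0.27 in the DN arm. The causes of these changes were not tested, apart from the smaller number of libraries in the fits that leave some out. Depth limits Ifi44 and Oas1g, which had few counts.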
